A study of Mus musculus with 8 samples.

Results

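The HMGA, IGF2BP and LIN28 genes (Hmga1, Hmga2, Igf2bp1, Igf2bp2, Igf2bp3, Lin28a and Lin28b) are 7 of the 31053 genes in the deposited matrices. They were taken by symbol as families of genes that are active in the embryo and in many tumors, and Hmga2 was chosen because it was among the largest rises between the temperatures in these same libraries. The cells are SN4741, a clonal mouse line labelled as neural precursor cells of WT genotype, derived from the embryonic substantia nigra and immortalized by a heat-sensitive viral T antigen placed under the tyrosine hydroxylase promoter. Single-cell transcriptomes came from 4 libraries grown at the permissive temperature (37 °C, 10% serum) and 4 libraries at the non-permissive temperature (39 °C, 0.5% serum for 48 hours), in which the T antigen is meant to lose its activity and the cells to differentiate. Temperature and serum were changed together in every 39 °C culture, so they cannot be told apart in any comparison between temperatures. Each family was compared between the temperatures, and between cells with and without a UMI (unique molecular identifier, one count per captured transcript) of Mki67, a nuclear protein gene transcribed in dividing cells.

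HMGA proteins are small chromatin proteins that bind the minor groove of AT-rich DNA and bend it, and Hmga2 is known for the self-renewal of young neural stem cells. IGF2BP proteins bind messenger RNAs in the cytoplasm and affect their stability, transport and translation. LIN28 proteins bind the precursors of the let-7 microRNAs and block their maturation, while mature let-7 binds the 3′ UTRs of HMGA, IGF2BP and LIN28 transcripts and lowers their output, so the families are linked in a circuit that sets developmental timing.

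The let-7 microRNAs were not measured in these libraries, but their target sequences in the 7 transcripts can be read from the reference. RefSeq (GRCm38.p6) gave 8 mature let-7 sequences from 10 loci, and all 8 share the seed in bases 2 to 8, which is set in capitals in the 3 sequences shown here for the alignment with the sites that follow.

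let-7a-5p: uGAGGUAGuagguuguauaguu
let-7g-5p: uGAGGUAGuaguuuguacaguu
let-7i-5p: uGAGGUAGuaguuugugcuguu

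The reverse complement of the seed, CTACCTC, was searched on the transcript strand of the longest 3′ UTR annotated for each gene (GENCODE M21, GRCm38). At least 1 match was present in 1898 of 21037 genes (9.02%). All 7 of the genes described here held one, with 17 matches in all. Hmga2, Igf2bp1 and Lin28b each held 4 matches, a number reached by 12 genes (0.057% of all). Lin28a held 2, and Hmga1, Igf2bp2 and Igf2bp3 held 1 each. Long 3′ UTRs hold more matches: among 2439 genes whose 3′ UTR was within a factor of 1.25 of the 3014 bases of Hmga2, 16.1% held a match and 3 held at least 4. The windows below show the 4 matches of Hmga2, whose transcript differed most between the temperatures, and the single match of Igf2bp2 and the first match of Igf2bp1, whose transcripts moved in opposite directions. Capitals mark the match, each window is written 5′ to 3′ on the transcript strand, and all of them lie in the 3′ UTR on the minus strand of GRCm38.

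Hmga2 (chr10:120364224-120364253): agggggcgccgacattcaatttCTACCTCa
Hmga2 (chr10:120362987-120363016): caataatccccactcctcaataCTACCTCt
Hmga2 (chr10:120362549-120362578): ggacttcctgatttgcaaggaaCTACCTCc
Hmga2 (chr10:120361691-120361720): gttgtacaatcaaaacacactaCTACCTCt
Igf2bp2 (chr16:22059473-22059502): gagaaaaacacacaaataaaagCTACCTCa
Igf2bp1 (chr11:95961778-95961807): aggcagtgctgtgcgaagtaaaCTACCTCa

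**Figure D1:**
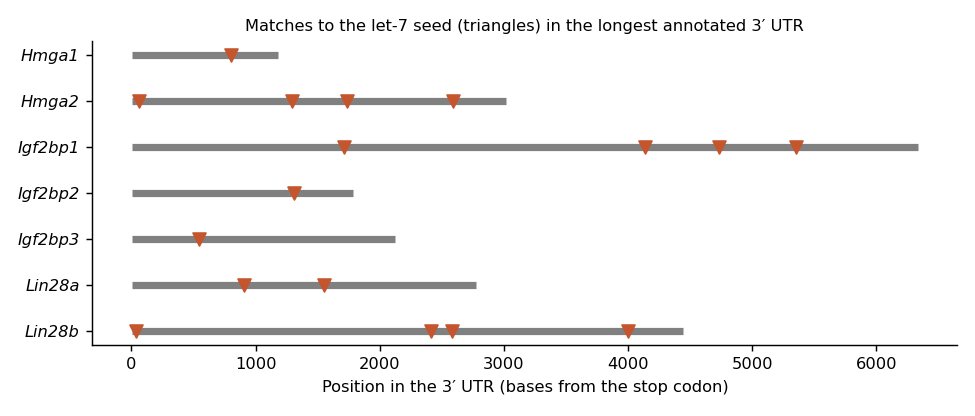
Matches to the let-7 seed (triangles) along the longest annotated 3′ UTR of each gene (grey bars, in bases from the stop codon). Hmga2, Igf2bp1 and Lin28b carry 4 matches each, Lin28a carries 2, and the other 3 genes carry 1. A match describes the sequence and does not show that let-7 acts on it in these cells.

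Of 19125 deposited cells, 18351 passed the study's limits (8550 at 37 °C and 9801 at 39 °C), and these held 17166686 to 29633818 UMIs per library with medians of 6676 to 16665 UMIs per cell. At most 5 cell barcodes were shared by any of the 28 pairs of libraries. Of the neural progenitor markers, Vim, Nes, Sox2 and Notch1 were expressed, while Pax6 (3 UMIs in all) and Msi1 (12 UMIs in all) were nearly absent. The summed level of the 6 neural progenitor markers was 5883 to 6214 CPM at 37 °C and 5657 to 6267 CPM at 39 °C (CPM here is the UMI count scaled to the same library total, without further factors). This sum can rest mostly on 1 gene, and the part of each gene in it was not separated. Its members moved in different directions, with Nes at -2.11 ± 0.071 on the log2 scale (edgeR, adjusted p = 5.80e-15), Notch1 at 1.09 ± 0.059 (adjusted p = 5.86e-12), Sox2 at 0.47 ± 0.047 (adjusted p = 5.33e-08) and Vim at -0.06 ± 0.059 (adjusted p = 0.372). The summed level of 6 mesenchymal markers, none of which was at 0, was 2070 to 2131 CPM and 864 to 890 CPM at the same temperatures. The 6 neuronal markers summed to 165 to 193 CPM at 37 °C, with Snap25 at 0, and to 79.3 to 97.7 CPM at 39 °C, the 5 glial markers to 0.540 to 0.931 CPM and 0.408 to 0.644 CPM, with Olig2 and Sox10 at 0 at both temperatures, Gfap at 37 °C and Aqp4 at 39 °C, and the 5 pluripotency markers to 0.472 to 0.762 CPM and 0.341 to 0.641 CPM, with Pou5f1, Zfp42 and Tdgf1 at 0 at both and Dppa3 at 39 °C. The part of the progenitor, mesenchymal and neuronal marker genes in the differences reported here was not tested. The labels do not say whether libraries of 1 temperature came from separate cultures, so p-values measure the spread between these libraries, which may be technical.

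Hmga2 (ENSMUSG00000056758, chromosome 10, 120361275 to 120476469, minus strand, GRCm38), the embryonic HMGA protein gene, was about 4 times as abundant at 39 °C as at 37 °C. Its level in the summed cells of replicates 1 to 4 was 56.4, 46.9, 57.5 and 55.05 CPM at 37 °C (CPM over tested genes, with library totals scaled by TMM factors). It was 214, 224, 228 and 250 CPM at 39 °C. The groups did not overlap, and the 39 °C library with the lowest level lay far above every 37 °C library. The means were 53.9 ± 4.83 and 229 ± 15.2 CPM (SD, n = 4 each), a log2 fold change of 2.09 (fold 4.25), ranking 172 of 15810 genes from the highest. Since Hmga2 was chosen on this contrast, its values are a description without a test.

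More cells held the transcript at 39 °C, and more held several copies. After each cell was thinned to 5000 UMIs, which left out 668 cells at 37 °C and 1668 at 39 °C as too shallow, at least 1 Hmga2 UMI was found in 17.2% ± 0.786 of cells at 37 °C and in 49.7% ± 1.25 at 39 °C (SD, n = 4). Without thinning the shares were 30.7% ± 3.19 and 62.9% ± 7.17. A thinned cell held 0.270 ± 0.029 Hmga2 UMIs on average at 37 °C and 1.20 ± 0.082 at 39 °C, and cells with 5 or more made up 0.540% ± 0.236 and 6.05% ± 1.21. As the line holds no second cell type known to lack Hmga2, a share set by free RNA in the droplets was not measured here.

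**Figure D2:**
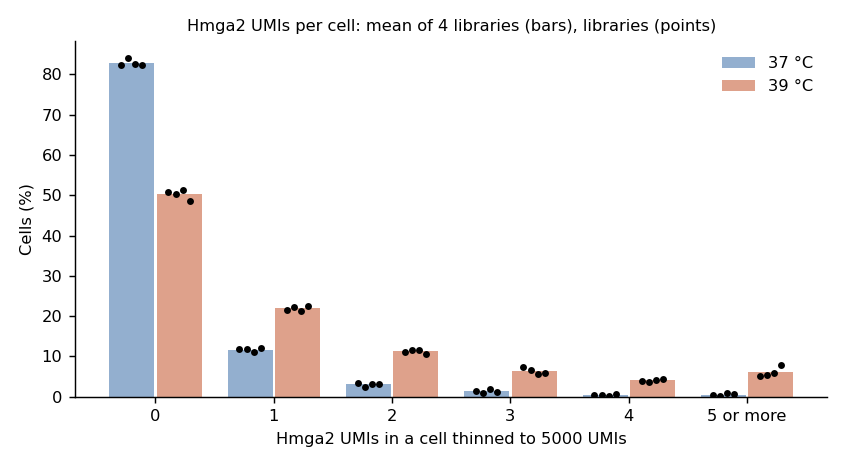
Share of cells (%) with 0 to 5 or more Hmga2 UMIs after thinning every cell to 5000 UMIs; bars are means of 4 libraries at 37 °C (blue) or 39 °C (orange) and points are single libraries. Cells without an Hmga2 UMI made up 82.8% at 37 °C and 50.3% at 39 °C, and every class with 1 or more UMIs was larger at 39 °C in all libraries.

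Hmga1 (ENSMUSG00000046711, chromosome 17, 27556497 to 27563674, plus strand), the more widely expressed HMGA gene, was counted at only 129 UMIs at 37 °C and 182 at 39 °C in all kept cells. The libraries gave 1.51, 1.09, 1.30 and 0.702 CPM at 37 °C and 2.84, 1.59, 1.88 and 1.43 CPM at 39 °C, so that the groups overlapped, with replicate 1 highest in each. On the log2 scale the difference was 0.69 ± 0.230 (SE), with an adjusted p = 0.0132 by edgeR's quasi-likelihood test (Benjamini-Hochberg), and without 37 °C replicate 4 it was 0.51 (adjusted p = 0.0575). Its count is uncertain, because 54.95% of the 50-base stretches of its transcripts also occur in those of Hmga1b (ENSMUSG00000078249, chromosome 11), a near-identical copy. In the last 500 bases of each Hmga1 transcript, the part nearest to the 3′ end, the share was 69.4%. Reads could thus be lost or split between Hmga1 and Hmga1b. Hmga1b held 464 and 752 UMIs and differed by 0.91 ± 0.185 on the log2 scale (edgeR, adjusted p = 2.62e-04). Its 39 °C replicate 1 was at 12.5 CPM, and replicates 2 to 4 were at 7.12, 6.69 and 5.94 CPM. Among the other 6 genes, no more than 0.768% of such stretches were shared with any other gene.

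The IGF2BP genes moved in different directions. Igf2bp2 (ENSMUSG00000033581, chromosome 16, 22059009 to 22163299, minus strand), the family member that stays expressed in adult tissues, was higher at 39 °C, while Igf2bp1 (ENSMUSG00000013415, chromosome 11, 95957163 to 96005940, minus strand), the classical oncofetal member, was lower. Igf2bp2 measured 25.7, 23.5, 24.8 and 23.2 CPM in the 37 °C libraries and 34.8, 37.2, 35.2 and 36.0 CPM in the 39 °C libraries. Every 39 °C library lay above every 37 °C library, and the difference on the log2 scale was 0.56 ± 0.050 (SE; edgeR, adjusted p = 8.98e-09). How many of all genes separated the libraries this fully was not counted. Separation alone is thus no result about this gene, nor about the other members.

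Igf2bp1 measured 24.2, 22.1, 24.1 and 22.0 CPM at 37 °C and 15.5, 13.3, 14.8 and 16.4 CPM at 39 °C. Here every 39 °C library lay below every 37 °C library, at -0.63 ± 0.065 on the log2 scale (edgeR, adjusted p = 7.13e-08). Set within each library, where depth cancels, the ratio of Igf2bp1 to Igf2bp2 UMIs was 0.951 ± 0.015 at 37 °C and 0.420 ± 0.044 at 39 °C (SD, n = 4), with ranges of 0.940 to 0.972 and 0.358 to 0.456 that did not overlap. The share of thinned cells with a UMI went the same ways, from 10.6% ± 0.649 to 6.75% ± 0.476 for Igf2bp1 and from 10.6% ± 0.899 to 16.1% ± 0.676 for Igf2bp2.

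Igf2bp3 (ENSMUSG00000029814, chromosome 6, 49085223 to 49214957, minus strand), the third mRNA-binding member of the family, did not pass the test. It measured 5.31, 5.93, 5.40 and 5.02 CPM at 37 °C and 6.52, 7.08, 5.27 and 6.24 CPM at 39 °C. The groups overlapped through 39 °C replicate 3, and the log2 fold change was 0.21 ± 0.098 (95% interval 0.02 to 0.40; edgeR, adjusted p = 0.0720). Without that library it was 0.29 (adjusted p = 0.0141), and without 37 °C replicate 2 it was 0.25 (adjusted p = 0.0470). It also passed with upper-quartile factors (0.23, adjusted p = 0.0498) and with library totals only (0.24, adjusted p = 0.0434).

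Lin28a (ENSMUSG00000050966, chromosome 4, 134003330 to 134018841, minus strand) and Lin28b (ENSMUSG00000063804, chromosome 10, 45376620 to 45486395, minus strand), the let-7 processing blockers, had 0 UMIs in every library, also when no cell was filtered out. A count of 0 allows up to 0.0265 CPM at 37 °C and 0.0308 CPM at 39 °C (3 UMIs over all libraries of a temperature), and a UMI in up to 0.0351% and 0.0306% of cells. These limits cover counting error only, whereas the intervals of fold changes rest on the edgeR SE, which includes the spread between libraries. Neither gene could be tested.

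Of the 4 other genes with enough counts, 3 passed at an adjusted p under 0.05, and Lin28a and Lin28b were not detected and could not be tested. Among all 15810 genes tested 62.0% passed in this comparison (31.5% higher and 30.5% lower at 39 °C), so that passing was the common outcome and the share among the members is no result about them. With the stricter limits that the study used on its bulk data (adjusted p under 0.01, log2 difference beyond 1.5 either way), 5.83% of genes were called. None of the 4 tested members reached that size.

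**Figure D3:**
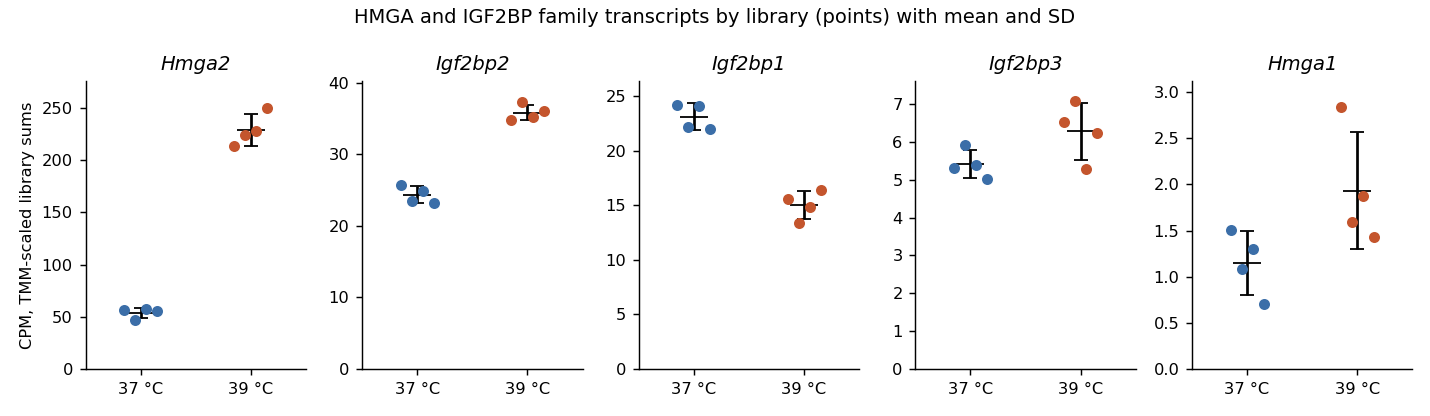
Level of each measured gene in CPM (library sums scaled by TMM factors) in the 4 libraries at 37 °C (blue) and the 4 at 39 °C (orange), with the mean and SD in black; each axis starts at 0 and has its own scale. Hmga2 and Igf2bp2 were higher and Igf2bp1 lower at 39 °C in every library, while Igf2bp3 and Hmga1 overlapped between the temperatures.

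The split by Mki67 asks whether these differences are also present among cells with a Mki67 UMI and among cells without one. Mki67 UMIs were found in 51.1% to 59.4% of cells at 37 °C (4746 cells) and in 5.44% to 7.41% at 39 °C (587 cells). Other genes of dividing cells followed the split: of 8 fixed genes, 7 were higher in cells with Mki67 UMIs at 37 °C, where the helicase subunit gene Mcm2 was lower, and 8 at 39 °C. The split is not clean. A Top2a UMI (topoisomerase of dividing cells) was found in 42.5% ± 2.10 of cells without Mki67 UMIs at 37 °C. At 39 °C it was found in 20.6% ± 5.04. The classes were also not matched for proliferation between the temperatures. In cells without Mki67 UMIs all 8 genes passed as lower at 39 °C (median log2 fold change -1.67). In cells with them 7 of 8 passed as lower (median -0.77). Of all genes, 56.8% and 33.5% passed either way in these comparisons. Of cells with Mki67 UMIs, 23.3% at 37 °C and 45.5% at 39 °C held only 1. Cells with Mki67 UMIs were also deeper, with library medians of 11448 to 17162 UMIs at 37 °C and 8386 to 17890 at 39 °C, against 8296 to 13059 and 6557 to 16586 in the other cells. Values with every cell thinned to 5000 UMIs are given where they ended a call. For these the classes were set again by the Mki67 UMIs left after thinning. At 39 °C this left 36, 106, 98 and 129 cells with Mki67 UMIs in replicates 1 to 4, against 73, 162, 162 and 190. Requiring at least 2 Mki67 UMIs left 37, 79, 97 and 107. Both settings thus hold fewer cells and counts in this class.

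The temperature difference of Hmga2 was of similar size within each class and in all cells. In cells without Mki67 UMIs the level was 64.1, 53.0, 65.4 and 55.8 CPM at 37 °C and 216, 226, 229 and 255 CPM at 39 °C, a log2 fold change of 1.97. In cells with Mki67 UMIs it was 52.5, 44.0, 54.4 and 55.8 CPM at 37 °C and 212, 222, 234 and 208 CPM at 39 °C, a log2 fold change of 2.10. The temperatures did not overlap in either class, which is a description only, since Hmga2 was chosen for its rise between them. After thinning, the share of cells with an Hmga2 UMI was 49.7% ± 1.44 without and 49.8% ± 4.52 with Mki67 UMIs at 39 °C, and 18.1% ± 0.453 and 15.98% ± 1.77 at 37 °C.

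Igf2bp1 was lower at 39 °C in cells without Mki67 UMIs (log2 fold change -0.49 ± 0.085, edgeR, adjusted p = 3.89e-05) and in cells with them (-0.44 ± 0.133, adjusted p = 0.0103). The second of these lost the call without 39 °C replicate 3 (-0.32, adjusted p = 0.106), with thinned cells (-0.28, adjusted p = 0.490) and with at least 2 Mki67 UMIs required (-0.40, adjusted p = 0.0907). Its means were 20.8 and 14.8 CPM in cells without Mki67 UMIs and 24.997 and 18.7 CPM in cells with them, at 37 °C and 39 °C.

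Igf2bp2 was higher at 39 °C in cells without Mki67 UMIs, by 0.42 ± 0.059 on the log2 scale (edgeR, adjusted p = 2.10e-06). In cells with Mki67 UMIs the difference was 0.04 ± 0.124, with a 95% interval of -0.20 to 0.28 (adjusted p = 0.842). The libraries there gave 24.1, 22.2, 22.6 and 21.7 CPM at 37 °C and 20.1, 28.6, 24.0 and 18.8 CPM at 39 °C, so the 39 °C libraries lay on both sides of the 37 °C libraries. When Top2a replaced Mki67 as the dividing-cell gene, the difference among cells with Top2a UMIs was 0.49 (adjusted p = 2.59e-06).

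Igf2bp3 did not pass in either class (0.17 ± 0.117, edgeR, adjusted p = 0.220, and 0.04 ± 0.247, adjusted p = 0.929). Hmga1 passed in cells without Mki67 UMIs (0.97 ± 0.297, edgeR, adjusted p = 0.00777; 0.76 with thinned cells, adjusted p = 0.0543), while in cells with them it rested on 87 UMIs at 37 °C and 8 at 39 °C (-0.21 ± 0.540, adjusted p = 0.814). In all, 3 of 4 tested members passed in cells without Mki67 UMIs, where 56.8% of all genes did, and 1 of 4 in cells with them, where 33.5% did.

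**Figure D4:**
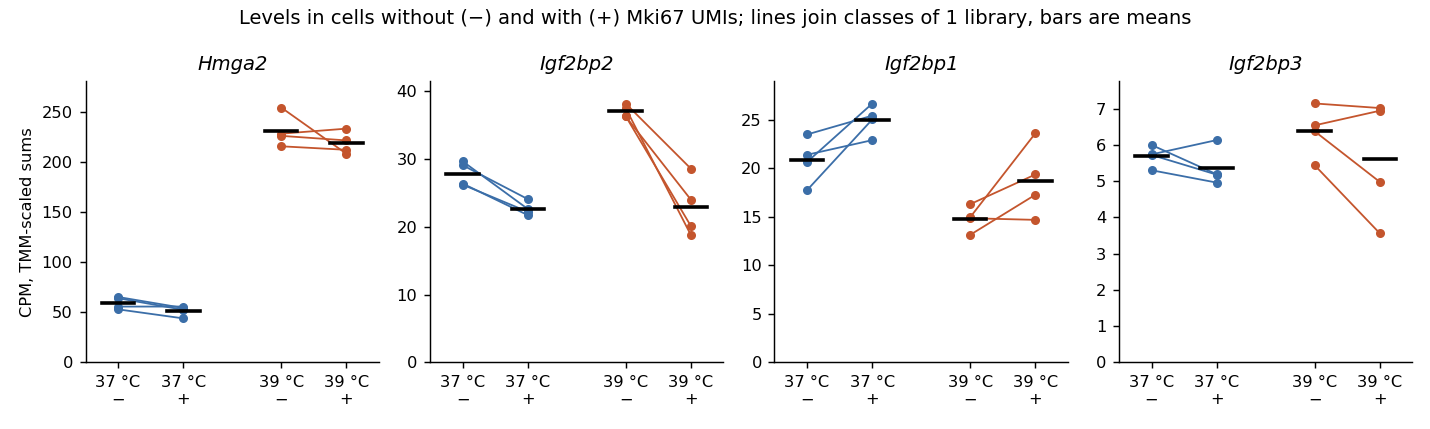
Levels of 4 genes in CPM (sums scaled by TMM factors over 16 sums) in cells without (−) and with (+) Mki67 UMIs at 37 °C (blue) and 39 °C (orange); thin lines join the classes of 1 library and black bars are means. Hmga2 differed by temperature in both classes, while Igf2bp2 was lower in cells with Mki67 UMIs in all 8 libraries, with means of 27.9 and 22.7 CPM at 37 °C and 37.1 and 22.9 CPM at 39 °C.

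Within libraries, Igf2bp2 was the one member that passed between the Mki67 classes at both temperatures with the Mki67 split (Hmga2 did so too with Top2a in place of Mki67). At 37 °C replicates 1 to 4 gave 29.1, 26.2, 29.7 and 26.4 CPM without Mki67 UMIs and the 24.1, 22.2, 22.6 and 21.7 CPM above with them. At 39 °C they gave 36.4, 38.2, 36.3 and 37.5 CPM without Mki67 UMIs. Cells with Mki67 UMIs were lower in all 8 libraries, by -0.30 ± 0.062 on the log2 scale at 37 °C (edgeR with library as a block, adjusted p = 2.42e-05) and -0.68 ± 0.110 at 39 °C (adjusted p = 4.56e-08), and both passed in all 22 alternatives tried. Their size was less stable, from -0.49 to -0.23 at 37 °C and from -1.01 to -0.16 at 39 °C. Both were smallest with Top2a in place of Mki67. The difference between the temperatures in this class effect was -0.39 ± 0.130 (edgeR, adjusted p = 0.0297), and it lost the call in 13 of 22 alternatives and turned to 0.07 with Top2a in place of Mki67 (adjusted p = 0.722). In the 13 the value kept its sign and lay between -0.51 (thinned cells, adjusted p = 0.276) and -0.29, with -0.39 without the library block, -0.34 with filterByExpr, -0.34 with DESeq2 and -0.33 with RLE factors. They include the fits without 37 °C replicates 1 and 2 (-0.38 and -0.37, adjusted p = 0.0529 and 0.0503) and without 39 °C replicates 1 and 4 (-0.34 and -0.29, adjusted p = 0.0944 and 0.204).

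Hmga2 was slightly lower in cells with Mki67 UMIs at 37 °C, by -0.20 ± 0.046 on the log2 scale (edgeR, adjusted p = 8.10e-05), a small difference beside the one between temperatures. It was -0.10 with thinned cells (adjusted p = 0.307). At 39 °C it was -0.08 ± 0.045 (95% interval -0.16 to 0.01; adjusted p = 0.229), and with Top2a in place of Mki67 it passed at -0.14 (adjusted p = 1.81e-05), while with a 10% mitochondrial limit it was 0.059. The difference between the temperatures was 0.13 ± 0.064 (adjusted p = 0.198), and it passed in 7 of 22 alternatives. The highest value was 0.30 with a 10% mitochondrial limit (adjusted p = 1.25e-04), and it was 0.22 with plain library totals (adjusted p = 0.00895), 0.20 with Top2a (adjusted p = 0.00270), 0.20 with upper-quartile factors and 0.18 with RLE factors. Without 37 °C replicate 4 and without 39 °C replicate 4 it also passed (0.20 each, adjusted p = 0.0388 and 0.0395).

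Igf2bp1 was the one member that passed as higher in cells with Mki67 UMIs, by 0.26 ± 0.067 at 37 °C (edgeR, adjusted p = 7.99e-04). Replicates 1 to 4 gave 23.5, 17.7, 20.6 and 21.4 CPM without and 25.4, 25.02, 26.7 and 22.9 CPM with Mki67 UMIs, higher in 4 of 4 libraries. The call was lost with DESeq2 (0.24, adjusted p = 0.0605), thinned cells (0.09, adjusted p = 0.601) and Top2a (0.15, adjusted p = 0.0885). At 39 °C it was 0.30 ± 0.140 (adjusted p = 0.0965), on 134 UMIs in cells with Mki67 UMIs. Without 39 °C replicate 3 it was 0.42 (adjusted p = 0.0406).

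Igf2bp3 did not pass at 37 °C (-0.09 ± 0.126, edgeR, adjusted p = 0.645) or at 39 °C (-0.21 ± 0.233, adjusted p = 0.558), and neither did Hmga1 (0.37 ± 0.283, adjusted p = 0.338, and -0.84 ± 0.494, adjusted p = 0.217). Thus 3 of 5 measured members passed at 37 °C, where 35.0% of all 14745 genes did, and 1 of 5 at 39 °C, where 28.0% did. The class effect differed between the temperatures for 1 of 5 members and for 13.3% of all genes.

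**Figure D5:**
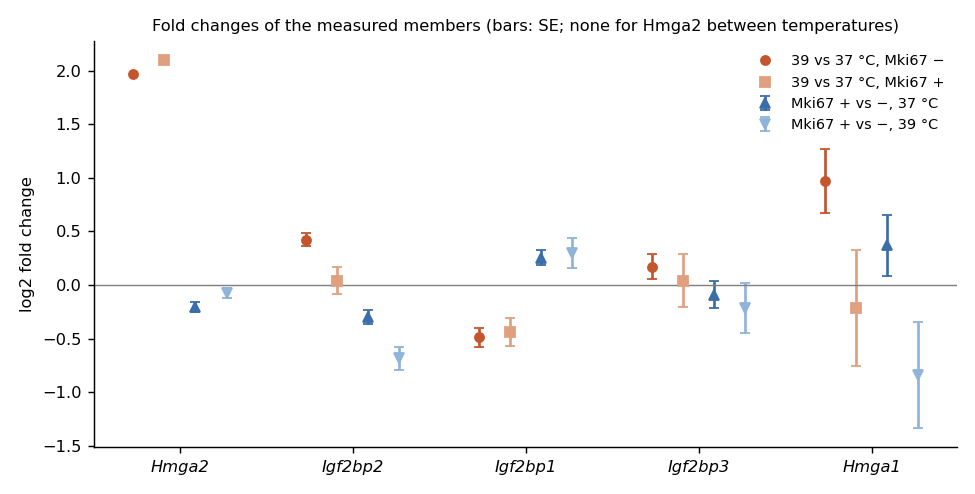
Log2 fold changes of the 5 measured genes between the temperatures within each Mki67 class (orange) and between the classes within each temperature (blue); bars are SE, and Hmga2 between temperatures has none because it was chosen on that contrast. Hmga2 stands near 2 in both classes, Igf2bp2 is below 0 in both blue comparisons, and Igf2bp1 is below 0 in both orange ones.

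The rest of the circuit moved in both directions between the temperatures in all kept cells. Of 16 genes of microRNA processing found in the files, 9 passed as higher and 6 as lower at 39 °C, with a median log2 fold change of 0.16 beside 0.02 over all genes, and none was called. Over all 15810 genes 31.5% passed as higher and 30.5% as lower, the shares against which this count and those of the next lists are to be read. The 3′ uridylases that mark let-7 precursors bound by LIN28, Zcchc6 (0.75 ± 0.046, edgeR, adjusted p = 3.65e-11) and Zcchc11 (0.34 ± 0.049, adjusted p = 5.94e-06), were among those that rose, as was Dicer1, the nuclease that cuts the precursor (0.20 ± 0.048, adjusted p = 0.00106). Dgcr8, the RNA-binding partner of the nuclear microprocessor, fell (-0.47 ± 0.070, adjusted p = 7.49e-06), while its nuclease Drosha did not pass (0.04 ± 0.051, adjusted p = 0.467). Msi1, counted among those that rose, rested on 2 UMIs at 37 °C and 10 at 39 °C.

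Of 24 tested genes widely cited as let-7 targets, outside the 7 members, 10 passed as higher and 11 as lower (31.5% and 30.5% over all genes), with a median log2 fold change of -0.00. The only one called was Dna2, a nuclease and helicase of DNA replication, which fell (-1.60 ± 0.085, edgeR, adjusted p = 4.43e-12). Of the 26 genes of this list, 18 held a seed match in their 3′ UTR. Tgfbr1, a TGF-β receptor (1.00 ± 0.067, adjusted p = 1.52e-10), and Irs2, an insulin receptor adaptor (0.92 ± 0.047, adjusted p = 2.57e-12), were higher. Thbs1, a matrix glycoprotein (-0.998 ± 0.058, adjusted p = 1.51e-11), and Limd2 (-1.08 ± 0.060, adjusted p = 9.58e-12) were lower.

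Of 8 tested transcripts known as cargo of IGF2BP proteins, 4 passed as higher and 3 as lower (31.5% and 30.5% over all genes), with a median of -0.04. Actb, the β-actin mRNA whose localization IGF2BP1 controls, fell (-1.23 ± 0.065, edgeR, adjusted p = 4.05e-12), as did Myc (-0.75 ± 0.094, adjusted p = 9.21e-07), while Cd44, an adhesion receptor, rose (0.51 ± 0.046, adjusted p = 7.81e-09). Igf2, for which the family is named, had 0 UMIs in every library and H19 had 3 UMIs in all. Of 12 genes linked to HMGA proteins, Igf2bp2 included, 6 passed as higher and 4 as lower, against the same shares over all genes, with a median of 0.30. The cyclins Ccnb2 (-4.19 ± 0.082, adjusted p = 4.87e-18) and Ccna2 (-3.80 ± 0.091, adjusted p = 5.93e-17) were called, both lower. The share of cells with Mki67 UMIs was lower in the same libraries, and its part in these values was not tested. Junb, an AP-1 factor, had the highest value (1.21 ± 0.059, adjusted p = 1.43e-12).

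Among 8399 genes with at least 10 CPM, the pattern of Hmga2 over the 16 sums of library and Mki67 class (log2 of CPM + 1) lay closest to those of Parvb, a focal adhesion adaptor (Pearson r = 0.990), Il4ra, an interleukin receptor chain (0.987), Irs2 (0.987), Unc5b, a netrin receptor (0.987), and Hs3st6, a heparan sulfate sulfotransferase (0.987). The 16 sums come from 8 libraries and 2 temperatures and are not independent, so these values describe likeness only. Their log2 fold changes between the temperatures were 1.07, 1.48, 0.92, 1.14 and 2.401. Hmga1 lay under the 10 CPM minimum and was not placed.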

How the data were processed

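Gene by cell matrices of UMI counts, one per library, were deposited as raw whole numbers. Per the labels and the study's methods, the authors captured cells with the Chromium Single Cell 3′ V3 kit and used Cell Ranger 3.0.1 with mm10, the same assembly as GRCm38. Cells with over 15% mitochondrial UMIs, under 200 or over 6000 genes were left out. No doublet caller was run; as an alternative the cells with most UMIs were left out at 0.8% per 1000 cells. Counts were summed per library, or per library and Mki67 class, and genes averaging 1 count or more per sum were tested with edgeR 4.0.16 (R 4.3.3; TMM, glmQLFit, glmQLFTest, Benjamini-Hochberg over all genes). Library was a block in the class comparisons. The procedure was tested on simulated data. Alternatives were RLE, upper-quartile or no factors, other count filters, DESeq2 1.42.0, a block on replicate number, other cell limits, thinning to 5000 UMIs, at least 2 Mki67 UMIs, Top2a in place of Mki67, and each library left out. All 7 members were named, and up to 3 called genes of each other list; list genes printed with no call were picked with their values in view. The members and lists were chosen with earlier results of these data known. The listed genes came from hand-written lists: cycling check, let-7 processing, let-7 targets, IGF2BP-bound transcripts, HMGA-linked genes and cell type markers.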

Additional observations from a re-analysis of the deposited data

Results flagged for a closer look

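The difference between the temperatures in the Mki67 class effect of Igf2bp2 was flagged because it passed a test of the difference itself. Cells with Mki67 UMIs were lower than cells without by -0.30 on the log2 scale at 37 °C and by -0.68 at 39 °C, a difference of -0.385 (edgeR quasi-likelihood test, adjusted p = 0.0297; 95% interval -0.64 to -0.13). At 39 °C the class with Mki67 UMIs held 29, 53, 54 and 34 Igf2bp2 UMIs in replicates 1 to 4. Over all alternatives the adjusted p ranged from 0.00248 to 0.722. In the levels of the members, no library stood apart from the other 3 of its group in any of 30 groups of 4 checked. By depth, 39 °C replicate 1 did differ. It kept 985 cells, against 2743, 2579 and 3494 in replicates 2 to 4. Its median was 16665 UMIs per cell, against 8586, 9886 and 6676 in those replicates.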

How the results depend on the processing

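Under the alternatives, 25 of 650 member values changed sign, whatever their call. Of the rest, 22 lost a call, 15 gained one and 588 did neither (Hmga2 by temperature was untested). In all kept cells, Hmga2 (2.03 to 2.13), Igf2bp1 (-0.70 to -0.57) and Igf2bp2 (0.53 to 0.64) kept direction between the temperatures in all 20 alternatives. The number of tested members that passed was 1 between the temperatures in cells with Mki67 UMIs; it was 0 with thinned cells, 0 with at least 2 Mki67 UMIs, 3 with Top2a, and 0 to 1 when each library was left out. Between the classes it was 3 at 37 °C and 1 with thinned cells, and 1 at 39 °C, 2 with library totals only, 2 with Top2a, and 1 to 2 when each library was left out. For the difference between the temperatures it was 1, and 0 with filterByExpr, DESeq2, no library block, no upper limit on genes or thinned cells, and 0 to 2 when each library was left out. The scaling factors also moved the median over all genes. For the difference between the temperatures it shifted by 0.050 with RLE factors, 0.067 with upper-quartile factors and 0.093 with library totals only. In the same fits Hmga2 went from 0.13 to 0.18, 0.20 and 0.22. The cause of the changes in calls was not tested.

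Between the temperatures in cells with Mki67 UMIs, Hmga1 turned from -0.21 to 0.0077 with a 10% mitochondrial limit, 0.048 with no cell filter, 0.047 with no upper limit on genes and 0.70 with Top2a, and ranged from -0.58 to 0.012 when each library was left out. Igf2bp2 turned from 0.04 to -0.010 with thinned cells and -0.22 with at least 2 Mki67 UMIs, and ranged from -0.081 to 0.13 with a library left out. Igf2bp3 turned from 0.04 to -0.0022 with the 10% limit, -0.10 with no cell filter, -0.081 with no upper limit and -0.079 with at least 2 Mki67 UMIs, and ranged from -0.11 to 0.24 with a library left out. Between the classes, Hmga1 turned to -0.055 with thinned cells at 37 °C and to 0.055 with Top2a at 39 °C, and Hmga2 at 39 °C to 0.059 with the 10% limit. For the difference between the temperatures, Igf2bp1 turned from 0.05 to -0.061 with no cell filter, -0.051 with no upper limit and -0.013 with Top2a, and ranged from -0.052 to 0.17 with a library left out, Igf2bp2 turned to 0.069 with Top2a, and Igf2bp3 from -0.12 to 0.20 with thinned cells. Fits of all genes moved by over 1.5 times in some settings: those passing between the temperatures in cells with Mki67 UMIs numbered 4832, but 2166 with thinned cells and 7984 with Top2a, and for the difference 1956, but 1057 with thinned cells, 1261 with DESeq2 and 925 with no library block. Between the classes they numbered 5166 and 3246 with thinned cells at 37 °C, and 4132 and 2312 at 39 °C. Called genes numbered 608 in cells without Mki67 UMIs and 397 with filterByExpr, 222 in cells with them, 133 with thinned cells and 590 with Top2a, 328 between the classes at 39 °C and 136 with Top2a, and 72 for the difference and 39 with Top2a.

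Replicate numbers were not used to pair the samples in the main fits. The deviations of 1 of 4 same-numbered pairs correlated over 0.1 (r from -0.12 to 0.29). So few pairs cannot settle whether the samples were paired. With the replicate block 3 members passed in all kept cells, as without it, and the block changed no call of a member. Lin28a and Lin28b were at 0 in every library, within the limits given above. Depth limits the values of cells with Mki67 UMIs at 39 °C, which rest on 587 cells in the main fits. They rest on fewer with thinned cells or with at least 2 Mki67 UMIs.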
